A study of Rattus norvegicus with 120 samples.

Results

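The hearts of obese ZSF1 rats given BT2 were compared with those of lean ZSF1 rats given vehicle, which asks how far treated obese hearts still differ from lean hearts. The rule took the 10 heart libraries labelled ZSF1 Obese, BT2, Study A and the 10 labelled ZSF1 Lean, Vehicle, Study A, which makes 20 of the 120 libraries of the series. Each library came from the whole heart of a separate rat aged 30 weeks, and compounds were given in the chow. ZSF1 rats are a cross in which the obese animals carry 2 faulty leptin receptor alleles and lean animals at least 1 working allele, and both carry the hypertensive background of the parent line. BT2 inhibits BDK, the kinase encoded by Bckdk. The 10 libraries of obese rats given vehicle in the same study are set beside the 20 throughout. Obese genotype and BT2 differ together between the treated and the lean hearts, so in that comparison their shares cannot be told apart, and no lean rats given BT2 are used here.

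The heart burns mostly fatty acids and takes smaller amounts of glucose, lactate, ketone bodies and amino acids. Fatty acids activate the nuclear receptor PPAR-alpha, which raises the enzymes of their own oxidation together with Pdk4, a kinase that switches off pyruvate dehydrogenase. BDK likewise switches off the branched-chain ketoacid dehydrogenase, the committed step in the breakdown of leucine, isoleucine and valine, and the phosphatase Ppm1k switches it on. An inhibitor of BDK acts on the enzyme's phosphorylation and need not alter any transcript.

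Libraries held 8832774 to 23575895 counts in lean hearts and 9061301 to 19352722 in BT2-treated hearts. Replicates 1 to 5 of every group were on plate 1 and replicates 6 to 10 on plate 2, and fits carry a plate term except where a value is given without it or on a single plate. Ventricular cardiomyocyte markers were abundant in all groups, with summed levels of 33766 to 57574 CPM, counts scaled to a library total of 1000000, in lean, 38656 to 54069 in untreated obese and 39604 to 52706 in BT2-treated hearts. Some libraries stood apart by genes of another tissue. Lean replicate 8 held 62.3 CPM of the kidney gene Umod against a median of 0.247 over 60 heart libraries. Untreated obese replicates 10 and 2 held 687 and 531 CPM of the atrial gene Myl7 (median 137). BT2 replicates 4, 9 and 2 held 802, 251 and 165 CPM of the skeletal muscle gene Myh4 (median 7.23). Results were recomputed without lean replicate 8 and the libraries over 5 times the median of Myl7 (untreated obese replicate 10) or over 100 times that of Myh4 (BT2 replicate 4). These are called the 3 other-tissue libraries, and untreated obese replicate 2 and BT2 replicates 2 and 9 stayed in. Each comparison left out only those that belong to its own groups. Treated against lean thus left out lean replicate 8 and BT2 replicate 4, and treated against untreated left out untreated obese replicate 10 and BT2 replicate 4. A second sequencing run was added to 7 BT2-treated libraries, including all 5 of plate 1, but to 3 lean libraries, and a fit with a term for that run was made as well.

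After treatment, obese hearts still differed from lean hearts at 540 of 12644 genes tested (edgeR, Benjamini-Hochberg adjusted p under 0.05), which is 4.27% of the genes. Of these, 327 were higher (2.59%) and 213 lower (1.68%), and 74 had changed at least 2-fold (0.585%). The median log2 fold change of all genes tested was 0.00. All 10 treated libraries lay above all 10 lean libraries at 26 genes (0.206%) and below them at 13 genes (0.103%). Untreated obese hearts, set against the same lean libraries, differed at 680 of 12694 genes (5.36%), of which 422 were higher (3.32%) and 258 lower (2.03%). The treated and untreated obese hearts differed from each other at 7 of 12545 genes (0.0558%). An unadjusted p under 0.05 was reached by 2319 of the 12644 genes between treated and lean hearts. Between the obese groups it was reached by 986 of the 12545 genes. The 2 comparisons with lean share their lean libraries, so their values are given side by side. On plate 1 alone (5 against 5) 767 genes were called, on plate 2 alone 25, and with a term for the second run 345.

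**Figure D1:**
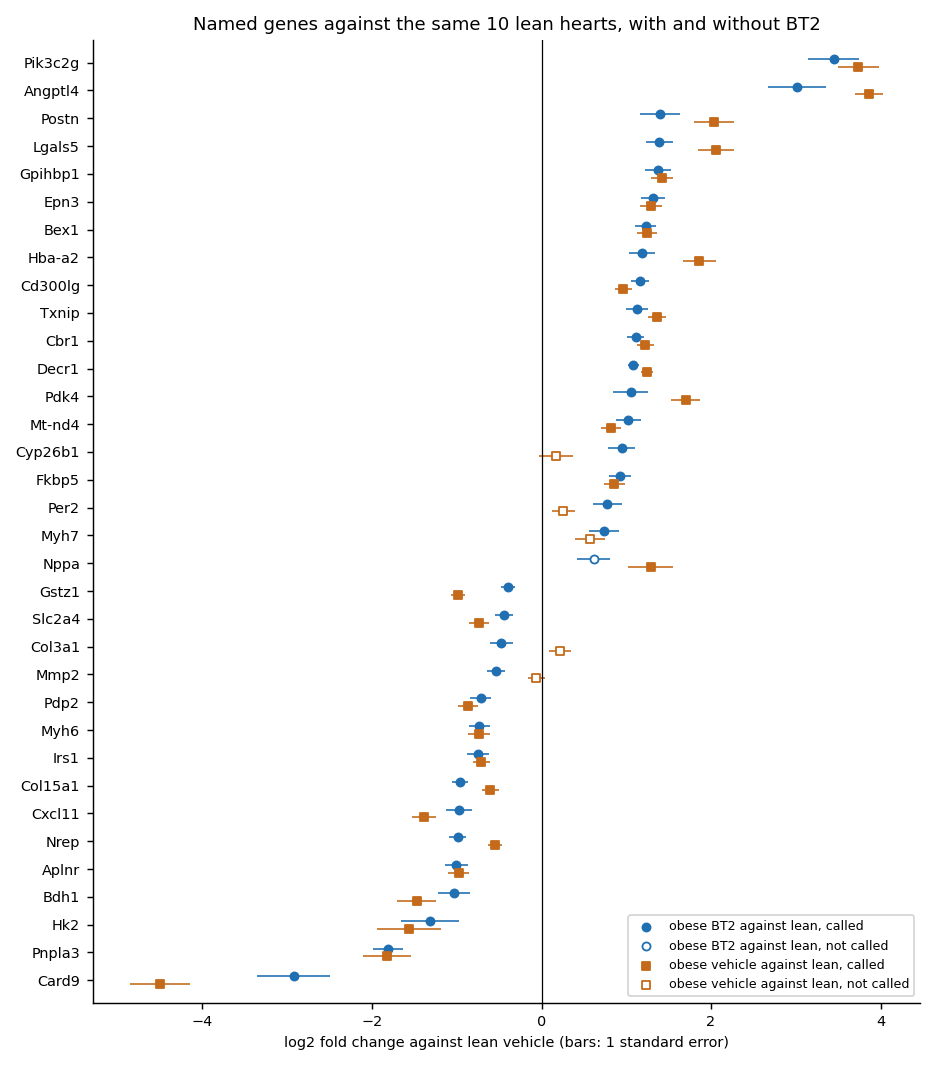
Log2 fold changes against lean vehicle hearts (x axis) of 34 named genes (y axis) in obese hearts with BT2 (circles) and without it (squares); bars are 1 standard error, filled symbols passed the test and open ones did not. Angptl4 lies at 3.01 with BT2 and 3.86 without, Pnpla3 at -1.81 and -1.82, while Col3a1 lies at -0.47 with BT2 and 0.22 without.

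Genes of fatty acid use were higher in treated obese hearts than in lean hearts. Of 20 genes of mitochondrial fatty acid oxidation tested, 8 rose and none fell (median log2 fold change 0.28), where 2.59% of all genes tested were higher. Of 23 PPAR target genes, 9 rose and none fell (median 0.30), and of 15 peroxisomal genes, 3 rose (median 0.18). Some genes stand in several of these lists. In untreated obese hearts the corresponding counts were 9 higher and 1 lower of 20, 12 higher of 22, and 3 higher and 1 lower of 15, with medians of 0.33, 0.43 and 0.17. No member of the 3 lists was called by edgeR between treated and untreated obese hearts, where 1, 4 and 0 members had an unadjusted p under 0.05, DESeq2 called 0, 1 and 0, and the medians were -0.03, -0.06 and 0.02 and that of all genes was 0.01.

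Decr1 (ENSRNOG00000008236), the mitochondrial dienoyl-CoA reductase needed to oxidise polyunsaturated fatty acids, had the smallest adjusted p of all genes with a symbol. Its level was 142 to 197 CPM in lean hearts (median 174), 336 to 393 CPM in treated hearts (median 363) and 343 to 505 CPM in untreated obese hearts (median 400). The lean hearts overlapped neither obese group. Decr1 rose by 1.08 ± 0.06 on the log2 scale (SE, edgeR adjusted p = 3.3e-10), with 0.98 on plate 1 and 1.15 on plate 2, and untreated obese hearts stood at 1.24. Ech1, which acts on the same class of fatty acid, rose by 0.67 ± 0.09 (edgeR adjusted p = 4.4e-05), with 358 to 549 CPM in lean and 617 to 912 CPM in treated hearts and no overlap. Eci1, an isomerase of unsaturated fatty acyl-CoA, rose by 0.75 ± 0.09 (edgeR adjusted p = 1.7e-05).

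The 2 long-chain acyl-CoA dehydrogenases lay above lean in every treated heart. Acadl ranged from 947 to 1522 CPM in lean hearts and from 1546 to 1996 CPM in treated hearts, a log2 fold change of 0.46 ± 0.09 (edgeR adjusted p = 0.0022). Acadvl ranged from 367 to 590 CPM in lean and from 601 to 752 CPM in treated hearts, a log2 fold change of 0.37 ± 0.08 (edgeR adjusted p = 0.011). The thiolase Acaa2, the last step of the cycle, ranged from 496 to 1233 CPM in lean and from 1247 to 1761 CPM in treated hearts and rose by 0.65 ± 0.12 (edgeR adjusted p = 0.0026). Cpt1a, an isoform of the carnitine palmitoyltransferase at the entry to mitochondria, rose by 0.46 ± 0.06 (edgeR adjusted p = 4.4e-05), and its groups did not overlap either. The margins between the highest lean and the lowest treated library were narrow for Acadl, Acadvl and Acaa2. Lean replicates 7 and 8 were the lowest lean libraries for each of these genes. The rises in untreated obese hearts were 0.42 for Acadl, 0.38 for Acadvl, 0.73 for Acaa2 and 0.53 for Cpt1a.

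Among the PPAR targets, Angptl4 (ENSRNOG00000007545), a secreted inhibitor of lipoprotein lipase, had the largest change. It ranged from 1.46 to 4.88 CPM in lean hearts (median 3.40), from 7.36 to 64.4 CPM in treated hearts (median 15.4) and from 34.1 to 70.9 CPM in untreated obese hearts (median 39.9). No treated heart overlapped the lean hearts, and the treated hearts spread much more widely than the untreated ones. Angptl4 was 8.07-fold higher with BT2 than in lean hearts (log2 3.01 ± 0.35, edgeR adjusted p = 7.9e-06). Untreated obese hearts were 14.5-fold above lean, and the difference between treated and untreated, -0.86, did not pass the test (edgeR adjusted p = 0.37).

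Pdk4 ranged from 67.5 to 208 CPM in lean hearts (median 161), from 84.2 to 432 CPM in treated hearts (median 312) and from 202 to 641 CPM in untreated obese hearts (median 470). BT2 replicate 6, at 84.2 CPM, lay within the lean range, and the other 9 treated libraries lay above it. Pdk4 rose by 1.05 ± 0.21 (edgeR adjusted p = 0.0031), against 1.70 in untreated obese hearts. It stood at 0.67 on plate 1 and 1.41 on plate 2 (edgeR adjusted p = 0.0002 and 0.22). The acyl-CoA thioesterase Acot2 rose by 0.82 ± 0.14 (edgeR adjusted p = 0.00094), with 0.58 on plate 1 and 1.03 on plate 2 (edgeR adjusted p = 0.0014 and 0.18). Lean replicates 7, 8 and 9 were the lowest lean libraries for Acot2, at 58.6, 64.3 and 78.2 CPM, and also for Pdk4. The part of these libraries in the rises was not tested. Acot1, a near-identical copy with which Acot2 can share reads, stood at 1.59 ± 0.35 (edgeR adjusted p = 0.0076), so the split between the pair is uncertain. Among peroxisomal genes, Pex11a, a factor of peroxisome division, rose by 0.96 ± 0.19 (edgeR adjusted p = 0.0027) and the fatty acid transporter Abcd3 by 0.37 ± 0.08 (edgeR adjusted p = 0.006).

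Ucp3, a carrier of the inner mitochondrial membrane, stood at 0.88 (edgeR adjusted p = 0.023), the dehydrogenase Acadm at 0.42 (edgeR adjusted p = 0.041) and the carnitine carrier Slc25a20 at 0.30 (edgeR adjusted p = 0.039). These 3 calls did not hold under every setting. Without the other-tissue libraries, the edgeR adjusted p was 0.086 for Ucp3, 0.051 for Acadm and 0.09 for Slc25a20, and with a term for the second run 0.075, 0.12 and 0.065. Acadm lost its call on leaving out any of 14 of the 20 libraries and Slc25a20 any of 15. Lean replicates 7, 8 and 9 were the lowest lean libraries for Acadm, and replicates 7 and 8 for Slc25a20. Ucp3 lost its call without BT2 replicate 4 (0.84, edgeR adjusted p = 0.054) or BT2 replicate 10 (0.79, edgeR adjusted p = 0.059). Without a filter on low counts Acadvl also missed the threshold (edgeR adjusted p = 0.052). Members called higher ranged from 6 to 9 for mitochondrial oxidation and from 6 to 12 for PPAR targets, in the settings counted for lists. Those settings were the main fit, DESeq2, DESeq2 size factors, no plate term, a replicate block, no mitochondrial transcripts and no other-tissue libraries. Members were not counted on single plates, with the second-run term, on the first run alone, without the low-count filter or without single libraries.

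PPAR-alpha binds as a dimer with RXR to a direct repeat of the hexamer AGGTCA spaced by 1 base. The 250 bases before the start of each gene were searched for AGGTCANAGGTCA on both strands with at most 2 mismatches. A promoter sequence was at hand for 12 of the 17 called genes of the 3 fatty acid lists, and 2 of these 12 held a match, Acadvl and Ucp3, where 3.15% of 33469 rat promoters did. Their promoters are shown as examples of called genes with such an element, in RefSeq sequence of build GRCr8, 5′ to 3′ on the strand of the gene, ending at the base before the start, with the match in capitals.
Acadvl, chr10:55236706-55236955, minus strand, 1 mismatch: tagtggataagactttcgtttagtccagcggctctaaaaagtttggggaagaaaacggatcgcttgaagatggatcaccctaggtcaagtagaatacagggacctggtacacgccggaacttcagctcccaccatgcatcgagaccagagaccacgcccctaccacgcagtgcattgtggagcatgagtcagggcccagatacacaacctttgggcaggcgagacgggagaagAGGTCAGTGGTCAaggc
Ucp3, chr1:164227660-164227909, plus strand, 2 mismatches: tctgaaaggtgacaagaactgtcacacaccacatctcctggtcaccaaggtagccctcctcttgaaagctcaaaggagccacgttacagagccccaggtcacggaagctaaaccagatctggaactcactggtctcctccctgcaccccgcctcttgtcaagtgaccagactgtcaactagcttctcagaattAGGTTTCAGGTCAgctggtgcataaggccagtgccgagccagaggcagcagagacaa
The Acadvl match begins 17 bases before the start and the Ucp3 match 57 bases before it. A match describes these letters only, and its absence from the other 10 windows says nothing of sites elsewhere.

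Of 31 genes of glucose uptake, glycolysis and pyruvate dehydrogenase control, 1 rose (Pdk4) and 3 fell, with a median of 0.01, where 2.59% of all genes tested were higher and 1.68% lower. In untreated obese hearts 3 rose and 6 fell, with a median of 0.01. The insulin-responsive transporter Slc2a4 ranged from 188 to 382 CPM in lean hearts (median 315), from 184 to 287 CPM in treated hearts (median 219) and from 150 to 230 CPM in untreated obese hearts (median 171). The 3 ranges overlapped. Slc2a4 fell by 0.44 ± 0.11 (edgeR adjusted p = 0.017), against -0.74 in untreated obese hearts, and the fit with a term for the second run gave -0.34 (edgeR adjusted p = 0.12). Pdp2, a phosphatase that activates pyruvate dehydrogenase, fell by 0.72 ± 0.12 (edgeR adjusted p = 0.00072), with 13.7 to 39.7 CPM in lean and 9.56 to 23.0 CPM in treated hearts. For both genes, lean replicates 7, 8 and 9 were the lowest lean libraries, at 188 to 290 CPM of Slc2a4 and 13.7 to 23.5 CPM of Pdp2. On plate 2 alone neither was called (edgeR adjusted p = 0.83 and 0.49). The same lean libraries were also lowest for Dbt, Pnpla3, Myom3, Deptor and Irs1, named below.

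Hk2, the inducible hexokinase, split the lean hearts into a high and a low set. Lean replicates 7, 8 and 9 held 4.11, 4.63 and 6.95 CPM, inside the treated range of 2.13 to 17.4 CPM (median 11.8), and the other 7 lean libraries held 26.2 to 37.9 CPM. Hk2 stood at -1.31 ± 0.35 (edgeR adjusted p = 0.029), with -1.38 on plate 1 (edgeR adjusted p = 0.00017) and -1.26 on plate 2 (edgeR adjusted p = 0.87). Its call was lost on leaving out any of 7 libraries (edgeR adjusted p = 0.05 to 0.065), without a plate term (0.11) and with a term for the second run (0.15). Bdh1, which interconverts the 2 main ketone bodies, had the same 3 lean libraries lowest, at 16.5, 22.3 and 33.7 CPM, where the other lean libraries held 50.3 to 64.4 CPM. Treated hearts held 12.7 to 32.1 CPM of Bdh1 and untreated obese hearts 6.56 to 26.9 CPM. It fell by 1.03 ± 0.19 (edgeR adjusted p = 0.0018), against -1.47 in untreated obese hearts. Bdh2, at 0.27 (edgeR adjusted p = 0.035), lost its call on leaving out any of 12 libraries and without the other-tissue libraries (edgeR adjusted p = 0.067).

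Of 6 genes that respond to intracellular glucose, 2 rose, where 2.59% of all genes tested were higher. Txnip, an inhibitor of thioredoxin and of glucose uptake, ranged from 231 to 509 CPM in lean hearts (median 364), from 626 to 1092 CPM in treated hearts (median 757) and from 870 to 1024 CPM in untreated obese hearts (median 954). Neither obese group overlapped the lean hearts. Txnip rose by 1.13 ± 0.13 (edgeR adjusted p = 9.3e-06), a 2.19-fold difference, with 1.05 on plate 1 and 1.18 on plate 2. Klf10, a transcription factor, rose by 0.72 ± 0.15 (edgeR adjusted p = 0.0062), and by 0.60 with a term for the second run (edgeR adjusted p = 0.053).

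**Figure D2:**
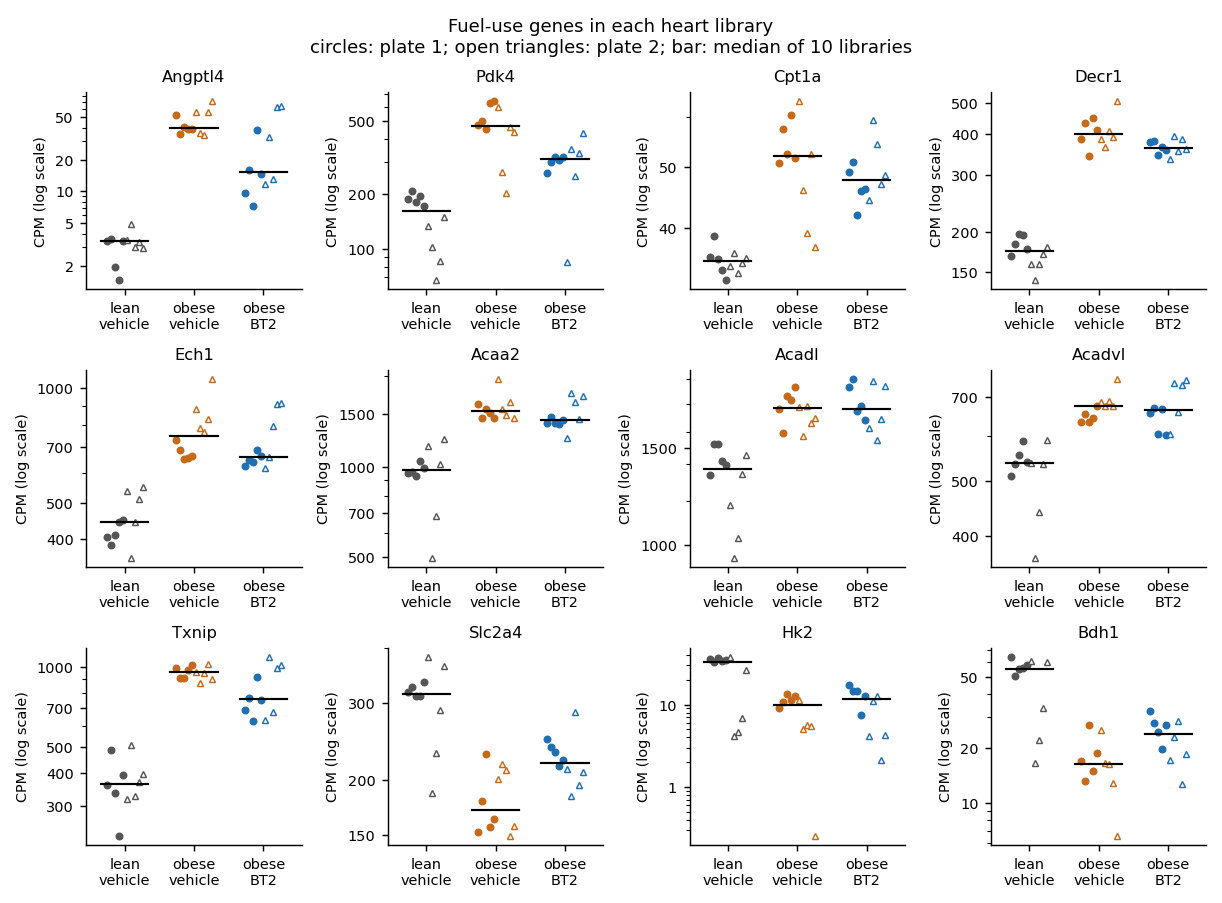
Levels of 12 fuel-use genes in each of 30 heart libraries, in CPM on log axes, by group; circles are plate 1, open triangles plate 2 and bars the median of 10 libraries. Decr1, Acaa2 and Txnip separate lean from both obese groups, and 3 lean triangles of Hk2 lie at 4.11 to 6.95 CPM, within the treated range.

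The branched-chain amino acid pathway, which BT2 acts on, showed no call between treated and lean hearts with both plates in the fit. None of its 26 genes passed the edgeR test against lean (median -0.06), where 6 had an unadjusted p under 0.05 and DESeq2 called none. Over all 12644 genes tested, 2319 had an unadjusted p under 0.05. The share called over all genes, 4.27%, comes to about 1 gene in a list of this size, so the absence of calls is near the background. Between treated and untreated obese hearts edgeR also called none (median 0.09), 4 had an unadjusted p under 0.05 and DESeq2 called 1. In untreated obese hearts 3 of 26 were lower (median -0.14). Bckdk was read from ENSRNOG00000019485, which the deposited description names as this kinase while its deposited symbol is Kat8. It ranged from 81.5 to 154 CPM in lean hearts (median 121) and from 97.8 to 137 CPM in treated hearts (median 111), with a log2 fold change of -0.05 ± 0.09 (edgeR adjusted p = 0.83). The treated range lay inside the lean range. The dehydrogenase subunits Bckdha, Bckdhb and Dbt stood at 0.11 ± 0.14, -0.05 ± 0.08 and -0.34 ± 0.14 (edgeR adjusted p = 0.73, 0.79 and 0.19). On plate 1 alone Dbt was called lower than lean (-0.41, edgeR adjusted p = 0.049), and on plate 2 alone it was not (-0.29, edgeR adjusted p = 0.998).

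Bcat2, the mitochondrial aminotransferase at the head of the pathway, ranged from 59.2 to 156 CPM in lean hearts (median 112), from 75.4 to 113 CPM in treated hearts (median 90.3) and from 54.7 to 87.5 CPM in untreated obese hearts (median 66.7). It was called lower without BT2 (-0.65, edgeR adjusted p = 0.0058) and not with it (-0.29, edgeR adjusted p = 0.26). With BT2 it was called lower on plate 1 alone (-0.34, edgeR adjusted p = 0.032) but not on plate 2 alone (-0.26, edgeR adjusted p = 0.998). The difference between the obese groups, 0.36, did not pass the test (edgeR adjusted p = 0.13), so the groups are not shown to differ. Ppm1k ranged from 5.06 to 31.3 CPM in lean and from 5.03 to 29.1 CPM in treated hearts (-0.44 ± 0.23, edgeR adjusted p = 0.33). Lean replicates 7, 8 and 9 were the lowest lean libraries for Ppm1k too, at 5.06 to 6.85 CPM. The leptin receptor gene Lepr was below the filter on low counts, with medians of 1.15 CPM in lean and 0.433 CPM in treated hearts. Its level is no check of the genotype, since the obese alleles still give a transcript.

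Several genes of lipid uptake and storage and of retinoid handling remained apart from lean. Of 13 lipid droplet and lipolysis genes, 4 rose and 1 fell (median 0.32), against 7 and 2 in untreated obese hearts (median 0.42). Over all genes tested with BT2, 2.59% were higher and 1.68% lower. Gpihbp1, which holds lipoprotein lipase on capillary endothelium, ranged from 18.3 to 56.3 CPM in lean and from 47.9 to 172 CPM in treated hearts. It rose by 1.37 ± 0.16 (edgeR adjusted p = 7.2e-06), against 1.42 without BT2. The lipid droplet proteins Cidea and G0s2, the latter an inhibitor of the lipase ATGL, rose by 0.46 ± 0.08 and 0.54 ± 0.12 (edgeR adjusted p = 0.0015 and 0.01). G0s2 missed the threshold without a plate term (edgeR adjusted p = 0.064). Pnpla3, a lipid droplet hydrolase, ranged from 3.39 to 13.4 CPM in lean, 1.56 to 3.43 CPM in treated and 0.193 to 3.82 CPM in untreated obese hearts. It was 3.51-fold lower with BT2 (log2 -1.81 ± 0.17, edgeR adjusted p = 6.2e-07) and stood at -1.82 without it.

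Of 16 genes of lipogenesis and desaturation, 1 rose and 3 fell, where 2.59% of all genes tested were higher and 1.68% lower. Among the lower ones were the desaturase Scd2 (-0.80 ± 0.12, edgeR adjusted p = 0.00022) and the elongase Elovl5 (-0.41 ± 0.09, edgeR adjusted p = 0.0053). Retsat, the retinol saturase, ranged from 113 to 154 CPM in lean and from 203 to 296 CPM in treated hearts with no overlap, and rose by 0.74 ± 0.08 (edgeR adjusted p = 1.8e-06). The retinol-binding protein gene Rbp7 rose by 1.13 ± 0.18 (edgeR adjusted p = 0.00037). Cyp26b1, which degrades retinoic acid, ranged from 3.90 to 7.65 CPM in lean, 6.34 to 20.03 CPM in treated and 3.68 to 15.3 CPM in untreated obese hearts. It rose by 0.94 ± 0.16 with BT2 (edgeR adjusted p = 0.00072) and stood at 0.17 without it (edgeR adjusted p = 0.72), while the obese groups did not differ by the test (0.77, edgeR adjusted p = 0.27).

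Gpihbp1, Rbp7 and Cd300lg are expressed in endothelium. Cd300lg, a receptor of capillary endothelium, ranged from 20.7 to 45.6 CPM in lean and from 41.6 to 97.1 CPM in treated hearts and rose by 1.16 ± 0.11 (edgeR adjusted p = 5.2e-07). Of 10 endothelial markers tested, 1 was called higher (median -0.05), where 2.59% of all genes tested were higher. The summed level of the endothelial markers was 868 to 1370 CPM in lean and 806 to 1273 CPM in treated hearts. The summed level of 9 adipocyte markers was 559 to 759 CPM in lean, 674 to 1209 CPM in treated and 704 to 1399 CPM in untreated obese hearts. Of the 3 adipocyte markers tested none was called (median 0.31), and Ucp1 was at 0 in all treated hearts. The part of adipocytes in the lipid results was not tested. In bulk tissue a change in the number of cells of a type and a change in RNA per cell cannot be told apart.

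Among contractile genes, the fast myosin heavy chain was lower and the slow one higher than in lean hearts. Myh6, the fast chain that dominates in the adult rat ventricle, ranged from 7334 to 13900 CPM in lean hearts (median 10347), from 4987 to 9073 CPM in treated hearts (median 6058) and from 4489 to 8082 CPM in untreated obese hearts (median 6219). The treated and lean ranges overlapped over a few libraries. Myh6 fell by 0.73 ± 0.13 (edgeR adjusted p = 0.00091) and stood at -0.74 without BT2. With BT2 it stood at -0.83 on plate 1 and -0.66 on plate 2 (edgeR adjusted p = 0.0015 and 0.61). Myh7, the slow chain that is re-expressed in the stressed heart, ranged from 4552 to 13976 CPM in lean hearts (median 7323) and from 10452 to 22066 CPM in treated hearts (median 13351). It rose by 0.73 ± 0.18 (edgeR adjusted p = 0.018), and stood at 0.57 without BT2 (edgeR adjusted p = 0.06). The Myh7 call was lost without BT2 replicate 5 (0.68, edgeR adjusted p = 0.052), without a plate term (0.051) and with a term for the second run (0.068). Myh6 and Myh7 are neighbouring, closely similar genes, so reads could be split between them.

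Of 32 sarcomere and Z-disc genes, 3 rose and 2 fell (median 0.09), and of 22 natriuretic and stress genes, 3 rose and 3 fell (median 0.11). Over all genes tested, 2.59% were higher and 1.68% lower. Without the other-tissue libraries the counts of the 2 lists were 1 and 2, and 1 and 3. The M-band gene Myom3 fell by 0.61 ± 0.13 (edgeR adjusted p = 0.0055). Skeletal alpha-actin, Acta1, stood at 0.79 ± 0.22 (edgeR adjusted p = 0.04) and the Z-disc gene Csrp3 at 0.41 ± 0.10 (edgeR adjusted p = 0.018). Acta1 lost its call on leaving out any of 15 libraries, and Csrp3 without BT2 replicate 4 (0.37, edgeR adjusted p = 0.052) or BT2 replicate 10 (0.38, edgeR adjusted p = 0.059). Without the other-tissue libraries the edgeR adjusted p was 0.1 for Acta1 and 0.065 for Csrp3. Skeletal muscle expresses both genes, and 3 treated libraries (replicates 2, 4 and 9) held 165, 802 and 251 CPM of Myh4 where lean hearts held 3.70 to 27.0 CPM. Of the 7 skeletal muscle markers tested none was called (median 2.91). The part of skeletal muscle in the Acta1 and Csrp3 values beyond BT2 replicate 4 was not tested.

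By edgeR over both plates, the natriuretic peptides were not called between treated and lean hearts. Nppa ranged from 305 to 951 CPM in lean hearts (median 375), from 440 to 1111 CPM in treated hearts (median 638) and from 480 to 2065 CPM in untreated obese hearts (median 951). All 3 ranges overlapped. Nppa stood at 0.62 ± 0.20 with BT2 (edgeR adjusted p = 0.081) and passed the test without it (1.29, edgeR adjusted p = 0.0042). It did not differ by the test between the obese groups (-0.67, edgeR adjusted p = 0.44). DESeq2 called Nppa higher in treated than in lean hearts (0.61, DESeq2 adjusted p = 0.029). So did edgeR on plate 1 alone (0.69, edgeR adjusted p = 0.045), but not on plate 2 alone (0.52, edgeR adjusted p = 0.93). Summed atrial markers, of which Nppa is 1 of 9, ranged from 934 to 1900 CPM in lean, 1217 to 2199 CPM in treated and 1250 to 4255 CPM in untreated obese hearts. The part of atrial tissue in the Nppa values was not tested. Nppb ranged from 114 to 405 CPM in lean and from 177 to 293 CPM in treated hearts (0.07 ± 0.17, edgeR adjusted p = 0.87).

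**Figure D3:**
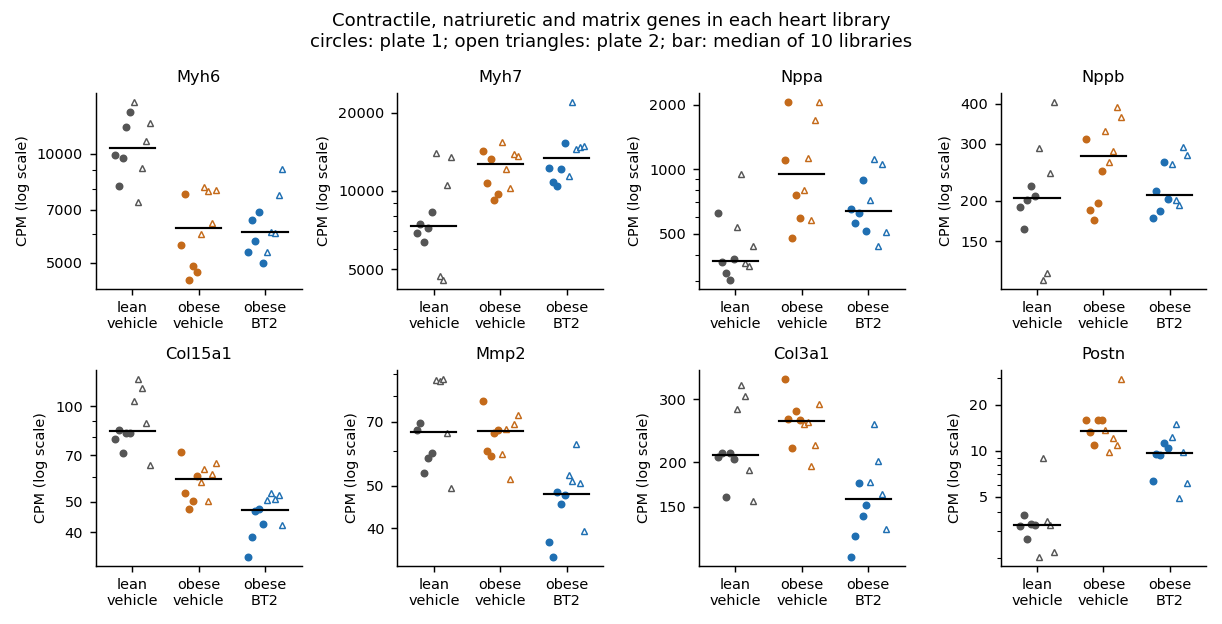
Levels of 8 contractile, natriuretic and matrix genes in each of 30 heart libraries, in CPM on log axes, by group; circles are plate 1, open triangles plate 2 and bars the median of 10 libraries. Myh6 is lower in both obese groups, Nppb overlaps fully, and Col15a1 in treated hearts (33.6 to 53.4 CPM) lies below all lean hearts (65.2 to 122 CPM).

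Matrix genes differed from lean in both directions in treated hearts, and more were called lower than higher. Of 39 matrix and fibroblast genes, 7 fell and 3 rose (median -0.19), where 1.68% of all genes tested were lower and 2.59% higher. In untreated obese hearts 1 fell and 6 rose (median 0.11), and between the obese groups 1 was lower with BT2 (median -0.32), where 22 had an unadjusted p under 0.05 and DESeq2 called 11. Against lean, 4 fell and 1 rose with BT2 without the other-tissue libraries, and 2 fell and 1 rose without a plate term. Col15a1 (ENSRNOG00000060381), a collagen of capillary and muscle basement membranes, ranged from 65.2 to 122 CPM in lean hearts (median 83.4), from 33.6 to 53.4 CPM in treated hearts (median 47.0) and from 47.5 to 71.9 CPM in untreated obese hearts (median 59.0). All treated hearts lay below all lean hearts. Col15a1 fell by 0.96 ± 0.09 (edgeR adjusted p = 9e-07), with -0.94 on plate 1 and -1.0 on plate 2, against -0.60 without BT2.

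Mmp2, the gelatinase of fibroblasts, ranged from 49.5 to 87.7 CPM in lean hearts (median 66.5), from 34.5 to 62.4 CPM in treated hearts (median 48.0) and from 51.9 to 78.1 CPM in untreated obese hearts (median 66.5). It fell by 0.54 ± 0.10 with BT2 (edgeR adjusted p = 0.0027) and stood at -0.06 without it (edgeR adjusted p = 0.81). The difference between the obese groups, -0.48, narrowly missed the threshold (edgeR adjusted p = 0.056). Col4a1 of basement membranes stood at -0.41 ± 0.10 (edgeR adjusted p = 0.018), and missed the threshold without a plate term (0.14) and with a term for the second run (0.067).

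The fibrillar collagens Col1a2 and Col3a1 and the small proteoglycans Lum and Dcn, which organise collagen fibrils, stood at -0.46, -0.47, -0.63 and -0.55 (edgeR adjusted p = 0.018, 0.045, 0.034 and 0.036). Without BT2 the values were 0.10, 0.22, -0.06 and -0.20, and none was called. Without the other-tissue libraries the edgeR adjusted p of the 4 treated values was 0.051, 0.11, 0.096 and 0.11. Col3a1 lost its call on leaving out any of 14 libraries, Lum any of 8 and Dcn any of 9. All 4 are fibroblast markers, and of 8 such markers 4 were called lower (median -0.41), where 1.68% of all genes tested were lower. The summed fibroblast marker level was 1122 to 2355 CPM in lean, 820 to 1668 CPM in treated and 1377 to 2029 CPM in untreated obese hearts. The part of fibroblast number in these values was not tested.

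Postn, a matricellular protein of activated fibroblasts, ranged from 2.03 to 8.89 CPM in lean hearts (median 3.28), from 4.92 to 15.0 CPM in treated hearts (median 9.61) and from 9.78 to 29.5 CPM in untreated obese hearts (median 13.4). Untreated obese hearts lay above all lean hearts, and treated hearts overlapped both groups. Postn rose by 1.40 ± 0.24 (edgeR adjusted p = 0.00071), against 2.04 without BT2. With BT2 it stood at 1.52 on plate 1 and 1.26 on plate 2 (edgeR adjusted p = 0.00013 and 0.53). Ltbp2, a binder of elastic fibres, stood at 0.82 ± 0.21 (edgeR adjusted p = 0.026) and the thrombospondin Thbs4 at 0.81 ± 0.23 (edgeR adjusted p = 0.049). Both missed the threshold without the other-tissue libraries (0.081 and 0.084) and with a term for the second run (0.13 and 0.23), and Thbs4 lost its call on leaving out any of 16 libraries.

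Transcripts encoded by the mitochondrial genome took a larger share of the counts in treated hearts. The share ranged from 28.5% to 46.2% in lean hearts (median 38.7%), from 36.7% to 52.5% in treated hearts (median 46.6%) and from 37.0% to 48.0% in untreated obese hearts (median 43.9%). Treated hearts exceeded lean hearts by 7.10 percentage points on average (two-sided permutation test with 100000 resamples, p = 0.0073). On plate 1 the difference was 8.52 points and the groups did not overlap (exact permutation test, p = 0.0079, the smallest that 5 against 5 allow), and on plate 2 it was 5.68 points (exact permutation test, p = 0.17). Of the 13 mitochondrially encoded transcripts, 8 rose and none fell (median 0.49), against 3 in untreated obese hearts (median 0.33) and none by edgeR or DESeq2 between the obese groups (median 0.17), where 1 had an unadjusted p under 0.05. With BT2 2.59% of all genes tested were higher than in lean hearts. Without a plate term 3 of the 13 were called with BT2.

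Mt-nd4, a subunit of complex I, ranged from 10126 to 25210 CPM in lean, from 18575 to 52263 CPM in treated and from 23838 to 42894 CPM in untreated obese hearts. It rose by 1.03 ± 0.15 (edgeR adjusted p = 0.00013). On plate 1 it stood at 1.10 and on plate 2 at 0.93 (edgeR adjusted p = 5.8e-05 and 0.48). Mt-cyb of complex III rose by 0.51 ± 0.10 (edgeR adjusted p = 0.0024) and Mt-co1 of complex IV by 0.49 ± 0.10 (edgeR adjusted p = 0.0056). Mt-co1 missed the threshold without a filter on low counts (edgeR adjusted p = 0.094). None of 29 nuclear genes of the respiratory chain was called by edgeR (median 0.09) or DESeq2 or had an unadjusted p under 0.05. Over all 12644 genes tested, 2319 had an unadjusted p under 0.05. Of 19 tricarboxylic acid cycle genes 1 fell (median -0.03), where 1.68% of all genes tested were lower. With the mitochondrial transcripts left out of the library totals, 519 genes were called in place of 540.

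**Figure D4:**
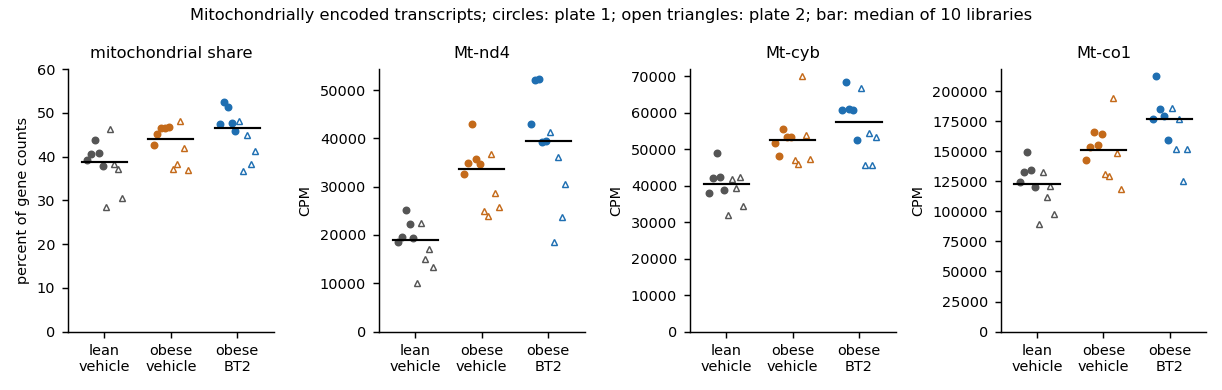
Share of counts from mitochondrially encoded transcripts (percent) and levels of Mt-nd4, Mt-cyb and Mt-co1 (CPM) in each of 30 heart libraries by group; circles are plate 1, open triangles plate 2 and bars the median of 10 libraries. The median share is 38.7% in lean, 43.9% in untreated obese and 46.6% in treated hearts, and plate 2 spreads lower than plate 1.

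The largest rise of a called gene with a symbol was in Pik3c2g (ENSRNOG00000034228), a class II phosphoinositide 3-kinase. It ranged from 0.103 to 1.13 CPM in lean hearts (median 0.680), from 5.24 to 18.4 CPM in treated hearts (median 6.09) and from 5.48 to 11.8 CPM in untreated obese hearts (median 9.88). Neither obese group overlapped lean, and Pik3c2g was 10.9-fold higher with BT2 (log2 3.45 ± 0.30, edgeR adjusted p = 1.6e-07). Card9, an adaptor of innate immune signalling, was the most lowered gene that reached a mean of 5 CPM in a group. It ranged from 6.70 to 43.5 CPM in lean hearts (median 15.7), from 0.150 to 13.1 CPM in treated hearts (median 1.29) and from 0 to 2.01 CPM in untreated obese hearts (median 0.847). A single treated library, at 13.1 CPM, reached the lean range, and no untreated library did. Card9 was 7.59-fold lower with BT2 (log2 -2.92 ± 0.43, edgeR adjusted p = 0.00014), against -4.50 without it, and the obese groups did not differ by the test (1.56, edgeR adjusted p = 0.38).

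Lgals5, a rat galectin, ranged from 2.65 to 5.65 CPM in lean, 5.70 to 13.9 CPM in treated and 8.44 to 30.2 CPM in untreated obese hearts. It rose by 1.39 ± 0.16 with BT2 (edgeR adjusted p = 9.3e-06) and stood at 2.06 without it. Haemoglobin alpha, Hba-a2, rose by 1.19 ± 0.15 (edgeR adjusted p = 3.4e-05), against 1.86 without BT2, with 462 to 1303 CPM in lean and 1043 to 3223 CPM in treated hearts. Haemoglobin genes are near-identical copies that share reads, and the summed erythroid markers, which include Hba-a2, ranged from 487 to 1330 CPM in lean and from 1063 to 3244 CPM in treated hearts. The part of blood held in the tissue was not tested. Cbr1, a carbonyl reductase, ranged from 15.5 to 29.3 CPM in lean and from 31.8 to 78.1 CPM in treated hearts with no overlap and rose by 1.11 ± 0.10 (edgeR adjusted p = 3.2e-07). Epn3, an endocytic adaptor, rose by 1.31 ± 0.15 and Bex1 by 1.23 ± 0.13 (edgeR adjusted p = 4.5e-06 and 1.7e-06), with 1.30 and 1.24 without BT2.

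Aplnr, the apelin receptor of endothelium and heart muscle, ranged from 56.0 to 87.4 CPM in lean and from 21.6 to 64.8 CPM in treated hearts and fell by 1.0 ± 0.14 (edgeR adjusted p = 6.5e-05). Nrep ranged from 25.7 to 42.2 CPM in lean, 12.99 to 23.1 CPM in treated and 18.2 to 25.5 CPM in untreated obese hearts. It fell by 0.99 ± 0.10 with BT2 (edgeR adjusted p = 1.1e-06), with no overlap, against -0.55 without it, and the difference of -0.44 between the obese groups missed the threshold (edgeR adjusted p = 0.06). Irs1, an adaptor of the insulin receptor, fell by 0.75 ± 0.13 (edgeR adjusted p = 0.00072), against -0.71 without BT2. It was 1 of 3 lower calls among 25 insulin, leptin and adiponectin genes (median -0.18), where 1.68% of all genes tested were lower. Fkbp5, a target of glucocorticoid receptor, rose by 0.92 ± 0.13 (edgeR adjusted p = 0.00011), against 0.86 without BT2. Its lowest lean libraries were replicates 7, 8 and 9. The clock gene Per2 rose by 0.78 ± 0.17 (edgeR adjusted p = 0.0086) as the only call of 18 clock genes, stood at 0.26 without BT2 (edgeR adjusted p = 0.34), and missed the threshold without a plate term (edgeR adjusted p = 0.058). A single call of 18 is near the 4.27% of all genes called.

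Of 21 myeloid markers 1 was called higher (median 0.03), which is near the 4.27% of all genes called. In the other comparisons 6 of 22 were called in untreated obese hearts (median 0.37) and none by edgeR between the obese groups (median -0.46), where 13 had an unadjusted p under 0.05 and DESeq2 called 3. The myeloid marker called with BT2, Fcer1g, a signalling chain of Fc receptors, ranged from 19.6 to 83.6 CPM in lean and from 24.9 to 205 CPM in treated hearts. It stood at 1.06 ± 0.27 (edgeR adjusted p = 0.026) and lost its call without BT2 replicate 5 (0.98, edgeR adjusted p = 0.061), without a plate term (0.11) and with a term for the second run (0.064). Of 31 interferon genes 1 rose and 2 fell, where 2.59% of all genes tested were higher and 1.68% lower. Irf7, a transcription factor of that response, stood at -0.45 (edgeR adjusted p = 0.042) but lost its call on leaving out any of 11 libraries. The chemokine gene Cxcl11 fell by 0.97 ± 0.16 (edgeR adjusted p = 0.0004), with 5.19 to 12.5 CPM in lean and 2.13 to 6.89 CPM in treated hearts, against -1.39 without BT2. Of 20 cell cycle genes edgeR called none (median -0.39), where 7 had an unadjusted p under 0.05, DESeq2 called 2 lower and the fit without the other-tissue libraries 1. Of 15 immediate-early genes edgeR called none (median 0.02), where 2 had an unadjusted p under 0.05 and DESeq2 called 1. Over all 12644 genes tested between treated and lean hearts, 2319 had an unadjusted p under 0.05.

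**Figure D5:**
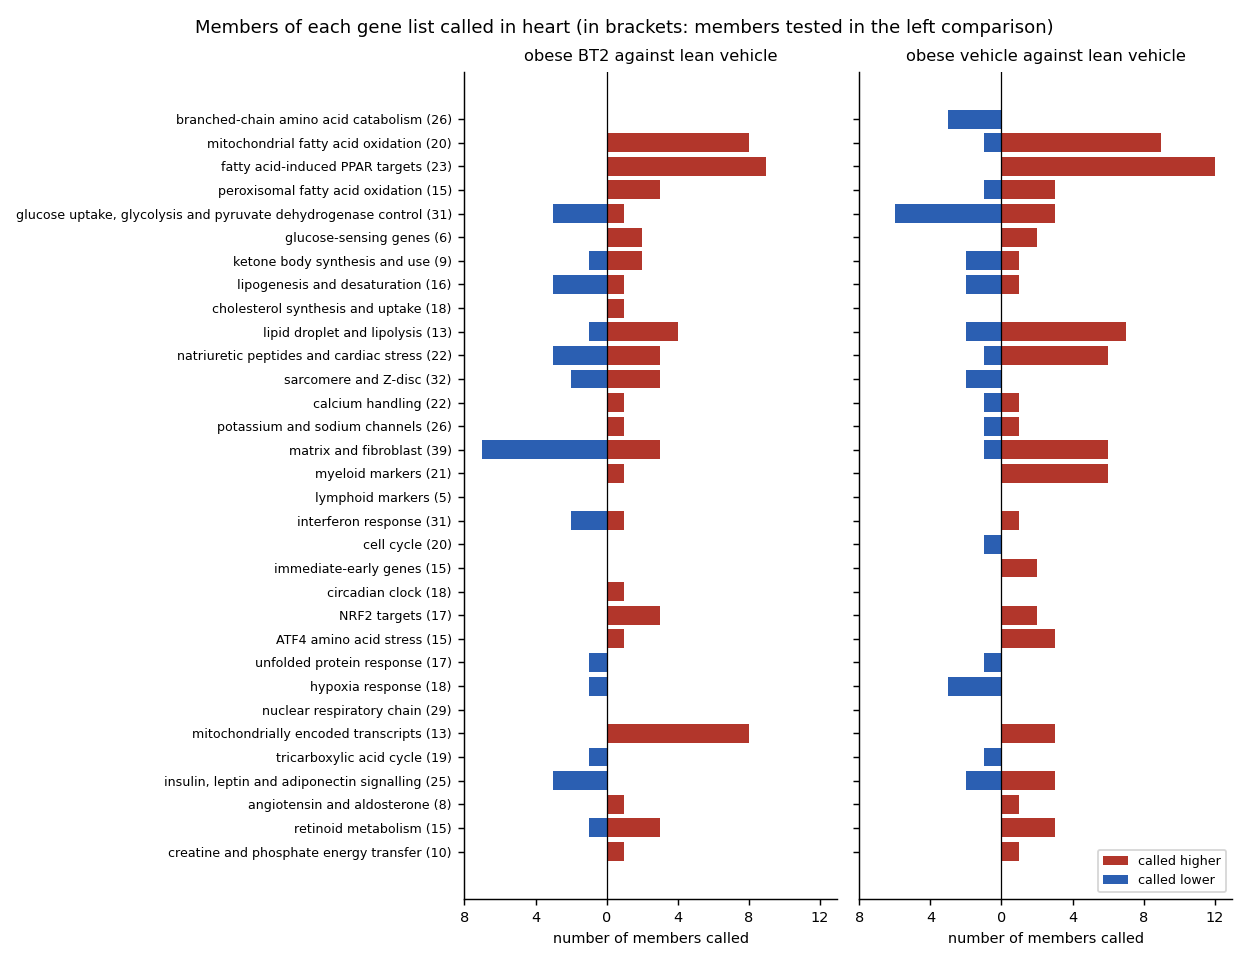
Number of members called higher (to the right) and lower (to the left) in each of 32 gene lists, for BT2-treated (left panel) and untreated (right panel) obese hearts against the same lean hearts, with the number tested in the left comparison in brackets. Fatty acid lists hold only higher calls with BT2 (8, 9 and 3), matrix genes hold 7 lower and 3 higher, and branched-chain amino acid genes hold none. Over all genes tested with BT2, 2.59% were called higher and 1.68% lower.

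The direct comparison of treated with untreated obese hearts called 3 genes higher (0.0239%) and 4 lower (0.0319%) of 12545 tested, with 986 at an unadjusted p under 0.05. DESeq2 called 95 genes, and edgeR called none without a plate term, without the other-tissue libraries or on plate 2 alone. In the authors' deposited table of the same comparison 82 genes passed an adjusted p of 0.05, 27 of them higher. Of the 7 genes, 5 had a symbol and a sufficient level to be named. Gstz1 (ENSRNOG00000047708), an enzyme of tyrosine breakdown, ranged from 37.4 to 42.9 CPM in lean hearts (median 40.3), from 23.4 to 38.4 CPM in treated hearts (median 29.6) and from 16.9 to 29.6 CPM in untreated obese hearts (median 19.3). The treated median lay between those of the other groups, and the treated range reached into both. Gstz1 was 0.59 higher with BT2 than without (edgeR adjusted p = 0.044), and against lean it stood at -0.40 ± 0.08 with BT2 (edgeR adjusted p = 0.0047) and at -0.99 without it.

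Slc38a3, a transporter of glutamine, ranged from 37.8 to 61.7 CPM in lean, 41.7 to 86.8 CPM in treated and 30.6 to 53.8 CPM in untreated obese hearts. It was 0.49 higher with BT2 than without (edgeR adjusted p = 0.044) and did not differ from lean by the test (0.17 ± 0.09, edgeR adjusted p = 0.37), where untreated obese hearts stood at -0.32. The 3 named genes that were lower with BT2 belong to the matrix or its cells. Col3a1 ranged from 155 to 328 CPM in lean, 109 to 256 CPM in treated and 195 to 342 CPM in untreated obese hearts and stood at -0.69 with BT2 against without (edgeR adjusted p = 0.044). Mfap4, a microfibril protein, stood at -0.53 and Cd248, a surface protein of fibroblasts and pericytes, at -0.47 (edgeR adjusted p = 0.044 for both). Against lean, Mfap4 stood at -0.30 with BT2 and 0.23 without, and Cd248 at -0.15 and 0.32, none of them called. In the authors' deposited table the log2 differences between treated and untreated hearts were 0.55 for Gstz1 and -0.62 for Col3a1. For genes not called, the deposited values could lie far from those of edgeR. Angptl4 and Nppa stood at -0.008 and -0.009 in the deposited table and at -0.86 and -0.67 by edgeR. The reason for this gap was not tested.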

How the data were processed

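Poly-A RNA of whole hearts was sequenced from stranded libraries on 2 plates, per the labels' protocols. For the authors' processing, the submitters' processing notes list genome build mRatBN7.2 with Salmon 1.5.2, STAR 2.7.3a and DESeq2 1.34.0. The deposited gene tables hold the authors' expected counts per gene, of which 6.85% of values are not whole. The authors' deposited comparison tables hold size-factor scaled counts (signal), log2 fold changes and p-values. In all 14 libraries with a second run the authors' scaled counts followed the sum of both runs, so runs were summed and rounded. The deposited count tables also held 82 columns that were assigned to no library of the series, and these were not used.

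Genes were tested with edgeR 4.0.16 (R 4.3.3; filterByExpr, TMM, trended dispersion, quasi-likelihood F test, plate term) with Benjamini-Hochberg adjustment and a threshold of 0.05. Levels are CPM with TMM factors over 30 libraries, and each group holds 10 rats. Comparisons used only their own 2 groups. DESeq2 1.42.0 and other settings were alternatives. On simulated data edgeR recovered 64.2% of 1.5-fold, 95.4% of 2-fold and 100% of 4-fold changes among 12565 genes in the treated against lean design, with 7.57% of calls false. The simulated counts held no plate effect, second-run effect or other-tissue library, so these rates need not hold for the real libraries. Matplotlib 3.10.9 drew the figures.

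The members and the 32 gene lists (670 of 698 symbols matched) were chosen with earlier results of these data known. The rule for naming genes took, among calls that have symbols and reach 5 CPM as a group mean, the 12 most raised and 12 most lowered, then up to 4 called members of each list by adjusted p, fixed pathway and heart genes, up to 8 called in each direction between obese groups, and the 10 smallest adjusted p. A pair of genes that the rule took is not reported here. Outside this rule, 13 genes were named after their values were seen: Acot1, Ucp3, Acaa2, Acadvl, Acadm, Slc25a20, Acta1, Lum, Dcn, Ltbp2, Thbs4, Col4a1 and Hba-a2. RefSeq promoters (GRCr8) were matched by symbol.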

Additional observations from a re-analysis of the deposited data

Results flagged for a closer look

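Within groups of 10 libraries, 27 values of named genes lay far from the rest of their group on a log scale, by a gap above Dixon's critical share of the group's range, over 267 groups checked. Chance alone flags about 1 group in 20.

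In treated hearts, Pdk4 was 84.2 CPM in replicate 6 (group median 312) and Nrep 23.1 CPM in the same library (15.0). Replicate 7 was highest for Myh7 (22066 CPM, median 13351), Thbs4 (7.45 CPM, 2.37) and Pik3c2g (18.4 CPM, 6.09), and replicate 10 for Klf10 (32.1 CPM, 18.2). Calls of Pdk4, Nrep, Pik3c2g and Klf10 held on leaving out any single library.

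In lean hearts, replicate 7 was lowest for Ucp3 (6.73 CPM, median 14.8) and Retsat (113 CPM, 147) and highest for Postn (8.89 CPM, 3.28). Replicate 8, the library with Umod, was highest for Acot1 (3.40 CPM, 0.709) and lowest for Cxcl11 (5.19 CPM, 9.83). Replicate 9 was lowest for Gstm1 (15.8 CPM, 19.5) and replicate 10 for Igfbp5 (81.1 CPM, 141).

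In untreated obese hearts, replicate 10, the library with the most Myl7, accounted for 8 of the values. It was lowest for Hk2 (0.257 CPM, median 9.94), Bdh1 (6.56 CPM, 16.5), Ppm1k (1.16 CPM, 12.5), Pnpla3 (0.193 CPM, 2.41) and Deptor (4.05 CPM, 17.2). It was highest for Postn (29.5 CPM, 13.4), Cd248 (15.1 CPM, 11.3) and Acadvl (754 CPM, 676). Replicate 6 was highest for Acaa2 (1957 CPM, 1528) and lowest for Elovl5 (11.1 CPM, 18.2). Replicate 3 was highest for Cyp26b1 (15.3 CPM, 6.24) and Gstz1 (29.6 CPM, 19.3), replicate 7 for Fcer1g (336 CPM, 80.4) and replicate 8 for Mt-cyb (70091 CPM, 52477).

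The difference from lean was itself different with and without BT2, by the edgeR test between the obese groups, for Gstz1 (0.59), Slc38a3 (0.49), Col3a1 (-0.69), Mfap4 (-0.53) and Cd248 (-0.47), each with an adjusted p of 0.044. No gene was called there without the other-tissue libraries, here untreated obese replicate 10 and BT2 replicate 4.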

How the results depend on the processing

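Treated against lean hearts gave 832 calls by DESeq2, 262 without a plate term, 25 on plate 2 alone and 345 with a term for the second run, against 540, and 409 (without BT2 replicate 10) to 689 (without lean replicate 7) on leaving out single libraries. Untreated obese against lean hearts gave 372 without a plate term and 49 on plate 2 alone, against 680. Treated against untreated obese hearts gave 95 by DESeq2, 4 on plate 1 alone, 13 with all 3 groups fitted together, and 0 without a plate term, on plate 2 alone, without the other-tissue libraries and with a replicate block, against 7. The cause of these shifts was not tested, and fits on a single plate hold 5 rats a group. Replicate numbers are shared between groups and follow the plate. Deviations of same-numbered libraries from their group means correlated at -0.07 to 0.51 (median 0.27, 7 of 10 pairs over 0.1), and with the plate removed at -0.42 to 0.17 (median -0.01, 3 of 10 over 0.1). Since not every pair was over 0.1, the numbers were not taken to pair the libraries, and 1 of 10 lean libraries (0 with the plate removed) was closest to its own number. The replicate block gave 364 calls for treated and 565 for untreated hearts against lean. Of 77 called genes named in the text, all 77 kept their direction under every setting, 63 kept their call on leaving out any single library, and 48 kept it under every setting other than plate 2 alone. On plate 2 alone, 63 of the 77 lost their call, among them Pdk4, Postn, Myh6 and Mt-nd4. Among genes not called, the log2 fold change changed sign for Bckdk (0.0093 on plate 2 alone and 0.0073 with a term for the second run), Bckdhb (0.019 with that term) and Nppb (-0.060 without the other-tissue libraries, and -0.0096 to 0.21 on leaving out single libraries). A tagwise dispersion left all calls as they were, since the test uses the trended one.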

Other observations

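Among NRF2 target genes, 3 of 17 were higher in treated obese than in lean hearts (median log2 fold change 0.20), where 2.59% of all genes tested were higher. The glutathione transferase gene Gsta4 ranged from 18.9 to 24.8 CPM in lean, 25.3 to 31.6 CPM in treated and 23.4 to 31.5 CPM in untreated obese hearts, and treated hearts did not overlap lean. It rose by 0.38 ± 0.06 (edgeR adjusted p = 0.00033). Gstm1, of the same family, rose by 0.48 ± 0.08 (edgeR adjusted p = 0.0011), against 0.57 without BT2. Of 17 genes of the unfolded protein response 1 fell (median -0.10), the endoplasmic reticulum protein gene Sdf2l1 (-0.63 ± 0.12, edgeR adjusted p = 0.0027). Of 15 ATF4 targets 1 rose (median -0.02), the transcription factor gene Cebpb (0.97 ± 0.23, edgeR adjusted p = 0.013), which missed the threshold without the other-tissue libraries (0.053) and without a plate term (0.071). A single call in a list of 17 or of 15 is near the 4.27% of all genes called.

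Several signalling genes were lower in treated than in lean hearts. Deptor, an inhibitor of mTOR, fell by 0.88 ± 0.14 (edgeR adjusted p = 0.00035) and stood at -0.71 without BT2. Cdh13, which binds adiponectin, fell by 0.49 ± 0.08 (edgeR adjusted p = 0.00072) and Igfbp5, a binder of insulin-like growth factors, by 0.58 ± 0.12 (edgeR adjusted p = 0.0047). The natriuretic peptide clearance receptor gene Npr3 fell by 0.71 ± 0.16 (edgeR adjusted p = 0.011), with 3.15 to 12.2 CPM in lean and 2.06 to 7.34 CPM in treated hearts, but missed the threshold without a plate term (0.20) and on the first run alone (0.058). Aldh1a1, which makes retinoic acid, fell by 0.59 ± 0.14 (edgeR adjusted p = 0.018), and by 0.52 without the other-tissue libraries (edgeR adjusted p = 0.059). Lrrc3b ranged from 6.00 to 8.31 CPM in lean and from 1.35 to 5.76 CPM in treated hearts, did not overlap, and fell by 1.02 ± 0.16 (edgeR adjusted p = 0.00044).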
